A study of Mus musculus with 10 samples.

Results

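The insulin-like growth factor (IGF) system was described in the developing mouse ear from 9 genes, read as the probe sets whose platform gene symbol is Igf1, Igf2, Igf1r, Igf2r, Igfbp2, Igfbp3, Igfbp4, Igfbp5 or Igfbp7. These are 2 ligands, 2 receptors and 5 binding proteins, out of 19938 genes measured, and each of the 9 had 1 probe set. The series asks how loss of the T-box transcription factor Tbx1 from the mesoderm changes gene expression in the ear. Periotic tissue, which is the otic vesicle with the mesenchyme around it, was taken at embryonic day 12.5 from 5 mutants and 5 controls, with both ears of an embryo pooled and 1 Affymetrix Mouse Gene ST 1.0 array per embryo. The mutants carried a T-Cre conditional knockout of Tbx1 and the controls were T-Cre conditional Tbx1 heterozygotes, so both groups carried T-Cre and the controls were not wild type. T-Cre acts in the early mesoderm, and the otic epithelium in the same dissection is not its target. The labels call the arrays of a group biological replicates.

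IGF1 and IGF2 are secreted peptides that promote growth and survival through the tyrosine kinase receptor IGF1R. IGF2R has no such kinase and carries IGF2 to lysosomes for breakdown. The binding proteins hold the ligands in the extracellular space and can limit or prolong their action, and IGFBP7 is a more distant relative that binds IGFs weakly. In the mouse Igf2 is expressed from the paternal allele and Igf2r from the maternal allele in most tissues, and mice without Igf1 lose cochlear ganglion neurons and hearing.

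The deposited values had array medians of 6.19 to 6.27 on the log2 scale and pairwise correlations of 0.985 to 0.993. RMA sets the arrays to one distribution, so like medians do not show that the arrays were technically alike. Tbx1 read 7.58 to 8.40 in the mutants and 8.23 to 9.01 in the controls, which is a log2 difference of -0.88 (limma adjusted p = 0.451, exact permutation p = 0.0159). Markers of the labelled tissue were detected: 16 of 16 measured otic epithelium genes and 17 of 17 measured periotic and head mesenchyme genes had a mean above the background range. So did the measured markers of every other cell type list, muscle, hindbrain and blood included, so detection does not single out the labelled tissue. Among these, the otic gene Oc90 read 8.35 to 10.57 and the mesenchyme gene Pou3f4 read 7.39 to 8.17. Background was taken as the range that probe sets of the Y chromosome showed in females, 3.12 to 4.36. There was 1 male among the mutants and there were 2 among the controls. Immediate early genes, which respond to handling, split both groups alike: their mean log2 deviation lay between 0.40 and 0.69 in the arrays numbered 1 to 3 and between -0.88 and -0.79 in those numbered 4 and 5. The labels do not say what the numbers share.

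The start regions of 4 binding-protein genes are shown. Igfbp3, Igfbp4 and Igfbp5 were taken because they had Pearson r of 0.816 to 0.965 with each other over the 10 arrays. Igfbp7 was taken because it had the largest difference between genotypes. The relations of Igfbp5 were the less stable ones. Without mutants 3 and 5 its r was 0.506 with Igfbp4 and 0.477 with Igfbp3, against 0.936 for Igfbp3 with Igfbp4. By rank correlation the adjusted permutation p of Igfbp5 with either gene was 0.0913. Each window runs from 250 bases before to 50 bases after the annotated start, 5′ to 3′ on the gene's strand, from RefSeq on build GRCm38.p6. Capitals mark matches to the searched motifs. The TATA box was searched as TATAAA on the gene strand alone. The GC box was searched on both strands as GGGCGG, and the core of the hypoxia response element on both strands as ACGTG, and no match overlaps another.
Igfbp3 (chr11:7213874-7214173, minus strand): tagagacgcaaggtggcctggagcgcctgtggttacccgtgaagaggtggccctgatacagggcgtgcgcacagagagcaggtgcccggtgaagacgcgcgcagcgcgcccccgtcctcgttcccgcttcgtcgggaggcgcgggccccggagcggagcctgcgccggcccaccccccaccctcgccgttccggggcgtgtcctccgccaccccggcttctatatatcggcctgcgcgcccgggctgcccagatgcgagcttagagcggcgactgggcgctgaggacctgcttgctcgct
Igfbp4 (chr11:99040994-99041293, plus strand): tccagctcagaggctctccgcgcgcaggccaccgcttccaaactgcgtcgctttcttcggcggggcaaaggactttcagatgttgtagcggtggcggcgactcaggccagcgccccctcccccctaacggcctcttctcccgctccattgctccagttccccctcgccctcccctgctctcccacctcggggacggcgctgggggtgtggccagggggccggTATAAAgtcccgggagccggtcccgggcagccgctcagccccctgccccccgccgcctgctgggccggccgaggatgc
Igfbp5 (chr1:72874816-72875115, minus strand): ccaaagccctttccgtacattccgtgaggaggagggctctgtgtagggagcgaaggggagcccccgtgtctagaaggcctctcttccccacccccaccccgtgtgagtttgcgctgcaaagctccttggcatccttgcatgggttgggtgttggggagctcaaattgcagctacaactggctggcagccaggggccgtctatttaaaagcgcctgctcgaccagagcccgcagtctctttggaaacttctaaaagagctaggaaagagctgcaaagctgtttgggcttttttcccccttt
Igfbp7 (chr5:77407996-77408295, minus strand): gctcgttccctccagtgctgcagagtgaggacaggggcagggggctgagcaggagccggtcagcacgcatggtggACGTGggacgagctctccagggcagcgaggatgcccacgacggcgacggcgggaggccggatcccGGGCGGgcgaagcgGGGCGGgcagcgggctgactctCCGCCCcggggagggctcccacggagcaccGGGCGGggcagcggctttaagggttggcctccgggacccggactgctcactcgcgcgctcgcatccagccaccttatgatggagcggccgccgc

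The windows differ in composition. G and C make up 71.7% of the Igfbp3 window, 71.3% of that of Igfbp4, 56.3% of that of Igfbp5 and 73.3% of that of Igfbp7, where the median over 32851 windows of this length was 52.7%. The numbers of CpG dinucleotides in the same order were 37, 27, 10 and 33, against a median of 7. The Igfbp4 window holds TATAAA at position -28 from the annotated start, a match found in 8.3% of all windows. The Igfbp7 window holds 4 GC boxes, of which at least 1 occurs in 35.7% of windows, and 1 ACGTG, which occurs in 19.6%. The Igfbp3 and Igfbp5 windows hold none of these letters. AGGTGT, the core of the T-box binding element, was searched on both strands and occurs in 13.7% of all windows and in 0 of the 13 windows of the 9 genes. Igf2 has 4 annotated windows and Igfbp2 has 2, and the array signal does not say which start was used.

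In this tissue every gene of the set was detected, and no difference between the genotypes passed the test. The lowest signal of any of the 9 genes on any array was 7.41 on the log2 scale, well above the background range. With limma, 0 of 9 genes passed an adjusted p of 0.05, where 0.0100% of all genes passed, and the adjusted p-values ran from 0.586 to 0.980. At an unadjusted p under 0.05 there was 1 of 9 genes, Igfbp7, beside 7.82% of all genes. That is 1 of 9 among genes higher in the mutants, beside 4.70% of all genes, and 0 of 9 among lower ones, beside 3.11%. With the replicate number as a block, which compares arrays of the same number, these counts were 1 of 9 higher (6.02% of all genes) and 3 of 9 lower (3.72%). The lower genes were Igfbp3, Igfbp4 and Igfbp5, and again 0 of 9 passed the adjusted threshold. These 3 genes had r of 0.816 to 0.965 with each other over the 10 arrays, so they do not count as separate results. In the unpaired fit without mutant 5 their log2 differences were -0.10, -0.09 and -0.10. For 0 of 9 genes did the groups fail to overlap, beside 1.83% of all genes. The mutant mean was higher for 3 genes and lower for 6, and the median log2 difference was -0.03 for the 9 genes and -0.00210 for all genes.

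**Figure D1:**
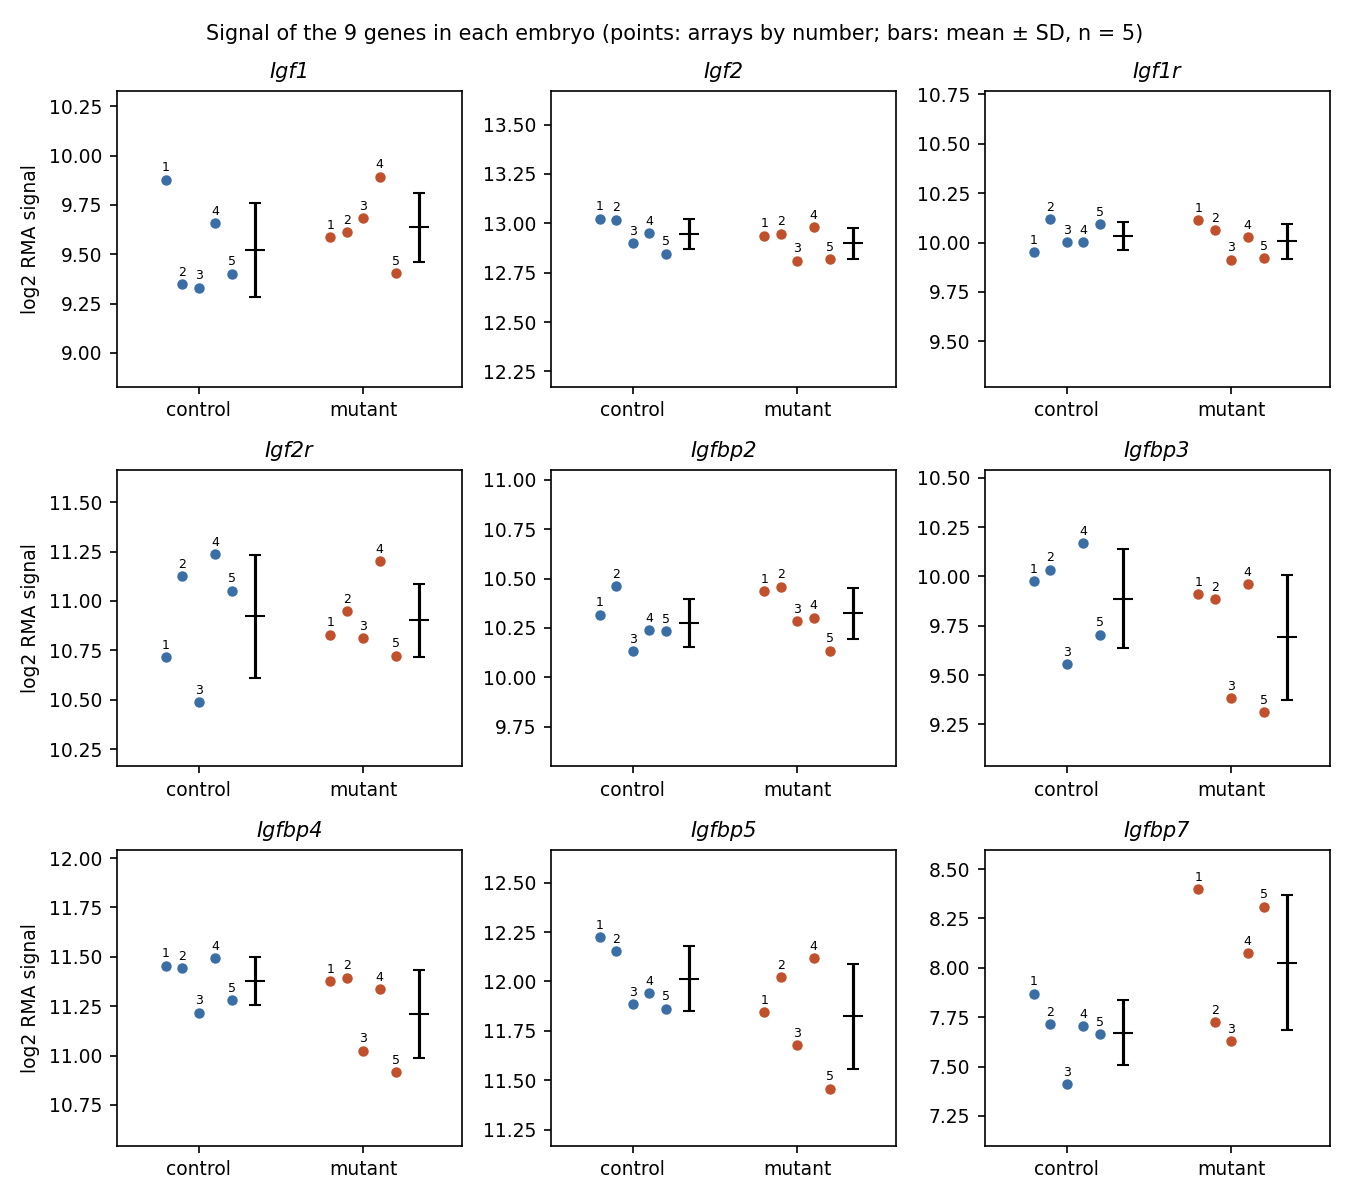
Log2 signal of each of the 9 genes (vertical axes) in the 5 controls and 5 mutants, with array numbers beside the points and the mean ± SD beside each group. The groups overlap for every gene, and Igfbp7 has 3 mutants above all controls.

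Of the ligands, Igf2 was nearly constant. Igf2 read 13.02, 13.02, 12.90, 12.95 and 12.85 in controls 1 to 5 and 12.94, 12.95, 12.81, 12.98 and 12.82 in mutants 1 to 5. All 10 embryos thus lay within 0.212 log2 units of each other, and mutants 3 and 5 read lowest. The control mean was 12.95 ± 0.08 and the mutant mean 12.90 ± 0.08 (SD, n = 5 per genotype). The log2 difference of Igf2 was -0.05 (standard error 0.05), so the mutant signal stood at 96.7% of the control signal (95% interval 90.0 to 104%, limma adjusted p = 0.809). With single arrays left out it ran from -0.0730 to -0.0259.

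Igf1 varied more from embryo to embryo than between genotypes. It read 9.88, 9.35, 9.33, 9.66 and 9.40 in controls 1 to 5 and 9.59, 9.61, 9.68, 9.89 and 9.41 in mutants 1 to 5. Control 1 and mutant 4 were the highest and nearly equal, and 3 controls lay below the lowest mutant. The log2 difference of Igf1 was 0.11 (standard error 0.11, interval -0.13 to 0.36, limma adjusted p = 0.809). The mutant was higher in 4 of 5 pairs of arrays with the same number. Without mutant 4 the difference was 0.05 and without control 1 it was 0.20.

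The receptors did not separate the genotypes either. Igf1r, through which both ligands signal, read 9.95 to 10.12 in the controls and 9.91 to 10.11 in the mutants. Its log2 difference was -0.03 (standard error 0.06), so the mutant signal stood at 98.2% of the control signal, with a 95% interval of 90.0 to 107% and a limma adjusted p of 0.926. With single arrays left out the difference ran from -0.0530 to -0.00320.

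Igf2r, the clearance receptor, had the widest spread among the controls. It read 10.71, 11.13, 10.49, 11.24 and 11.05 in controls 1 to 5 and 10.83, 10.95, 10.81, 11.20 and 10.72 in mutants 1 to 5. The number 4 arrays were the highest in both genotypes. The SD was 0.31 in the controls and 0.18 in the mutants, and the log2 difference of Igf2r was -0.02 (standard error 0.13, interval -0.31 to 0.27, limma adjusted p = 0.980). The sign was not stable: among arrays 1 to 3 the difference was 0.09 (interval -0.21 to 0.38), and among arrays 4 and 5 it was -0.18 (interval -0.61 to 0.24). Without control 4 it was 0.06 and without control 3 it was -0.13. The arrays do not read the parental alleles apart.

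Igfbp3, Igfbp4 and Igfbp5 read lower in the mutants on average, and none of these differences passed. IGFBP3 is the main carrier of IGFs in blood, IGFBP4 mostly restrains them, and IGFBP5 is a matrix-bound form found in skeletal and muscle tissue. Igfbp3 read 9.97, 10.03, 9.55, 10.17 and 9.70 in controls 1 to 5 and 9.91, 9.89, 9.38, 9.96 and 9.31 in mutants 1 to 5. Igfbp4 read 11.45, 11.44, 11.22, 11.49 and 11.28 in the controls and 11.38, 11.40, 11.02, 11.34 and 10.92 in the mutants, in the same order. For both genes mutants 3 and 5 lay below all controls and 3 controls lay above all mutants. Igfbp5 read 12.22, 12.15, 11.89, 11.94 and 11.86 in controls 1 to 5 and 11.85, 12.02, 11.68, 12.12 and 11.46 in mutants 1 to 5, with 3 mutants below all controls.

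The log2 difference of Igfbp3 was -0.20 (standard error 0.15, interval -0.52 to 0.12, limma adjusted p = 0.741). That of Igfbp4 was -0.17 (standard error 0.10, interval -0.38 to 0.04, adjusted p = 0.681), and that of Igfbp5 was -0.19 (standard error 0.11, interval -0.44 to 0.06, adjusted p = 0.691). With the replicate number as a block the intervals narrowed to -0.33 to -0.06 for Igfbp3 (unadjusted p = 0.00897, limma adjusted p = 0.400), -0.29 to -0.05 for Igfbp4 (0.0125, adjusted p = 0.404) and -0.36 to -0.01 for Igfbp5 (0.0372, adjusted p = 0.467). The mutant signals corresponded to 87.3%, 89.1% and 87.7% of the control signals. With the same-number arrays set against each other, the mutant was lower in 5 of 5 pairs for Igfbp3 and for Igfbp4, a pattern that 4.88% of all genes showed, and in 4 of 5 pairs for Igfbp5. The pair differences of Igfbp3 ran from -0.06 in pair 1 to -0.39 in pair 5, and those of Igfbp4 from -0.05 in pair 2 to -0.36 in pair 5. Without mutant 5 the log2 differences fell in size to -0.10 for Igfbp3, -0.09 for Igfbp4 and -0.10 for Igfbp5. Mutant 5 also had the highest mean of the neuronal markers (0.75, where the other 9 arrays lay between -0.72 and 0.21) and of the hindbrain and neural tube markers (1.07, against -0.34 to 0.39), and the part of this in the lower values was not tested.

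Igfbp7, a secreted protein abundant around blood vessels, had the largest difference of the set and read higher in the mutants. It read 7.87, 7.71, 7.41, 7.71 and 7.66 in controls 1 to 5 and 8.40, 7.72, 7.63, 8.07 and 8.31 in mutants 1 to 5. Mutants 1, 4 and 5 lay above all controls, while mutants 2 and 3 lay within the control range. The log2 difference of Igfbp7 was 0.35 (standard error 0.14, interval 0.04 to 0.67), or 128% of the control signal, with an unadjusted p of 0.0292 and a limma adjusted p of 0.586. The unadjusted limma p rose above 0.05 when any of 4 arrays was left out: it was 0.0832 without mutant 1, 0.0526 without mutant 4, 0.0685 without mutant 5 and 0.0782 without control 3, with log2 differences of 0.26, 0.34, 0.28 and 0.29. Mutant 1, with the highest Igfbp7, read 8.40 for Tbx1, inside the control range. It was also the 1 male among the mutants. Igfbp7 averaged 7.98 ± 0.38 in the 3 males and 7.79 ± 0.30 in the 7 females (SD). With sex as a term the log2 difference of Igfbp7 was 0.41 (interval 0.11 to 0.70, limma adjusted p = 0.608). With the replicate number as a block the interval was 0.14 to 0.57 and the limma adjusted p was 0.377. An exact two-sided permutation test of the 10 arrays gave p = 0.0952, where the smallest possible p is 0.00794. The mutant was higher in 5 of 5 same-number pairs, as for 5.91% of all genes, with pair differences from 0.01 in pair 2 to 0.65 in pair 5. Among arrays 1 to 3 Igfbp7 differed by 0.25 (interval -0.17 to 0.67), and among arrays 4 and 5 by 0.51 (interval 0.19 to 0.82). The endothelial markers overlapped between the genotypes in their mean: of 16, 9 were higher and 7 lower in the mutants, their median log2 difference was 0.08, and their mean deviation ran from -0.11 to 0.09 in the controls and from -0.24 to 0.24 in the mutants. Mutant 5, with the second-highest Igfbp7, had the lowest endothelial mean. As a description, the r of Igfbp7 with that mean was 0.160 over 10 arrays and 0.785 without mutant 5. This r was 0.0954 with group means taken out and 0.439 without the 2 arrays farthest from the median of the endothelial mean. The value thus depended on the arrays used. The part of vessel content in the Igfbp7 values was not tested. In pieces of tissue, fewer cells of a type and less RNA per cell cannot be told apart.

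Igfbp2, a binding protein of embryonic epithelia and neural tissue, was close to equal in the genotypes. It read 10.13 to 10.46 in the controls (median 10.24) and 10.13 to 10.46 in the mutants (median 10.30). Its log2 difference was 0.05 (standard error 0.08, interval -0.12 to 0.21, limma adjusted p = 0.891). It was 0.0106 without control 3 and 0.0938 without mutant 5.

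**Figure D2:**
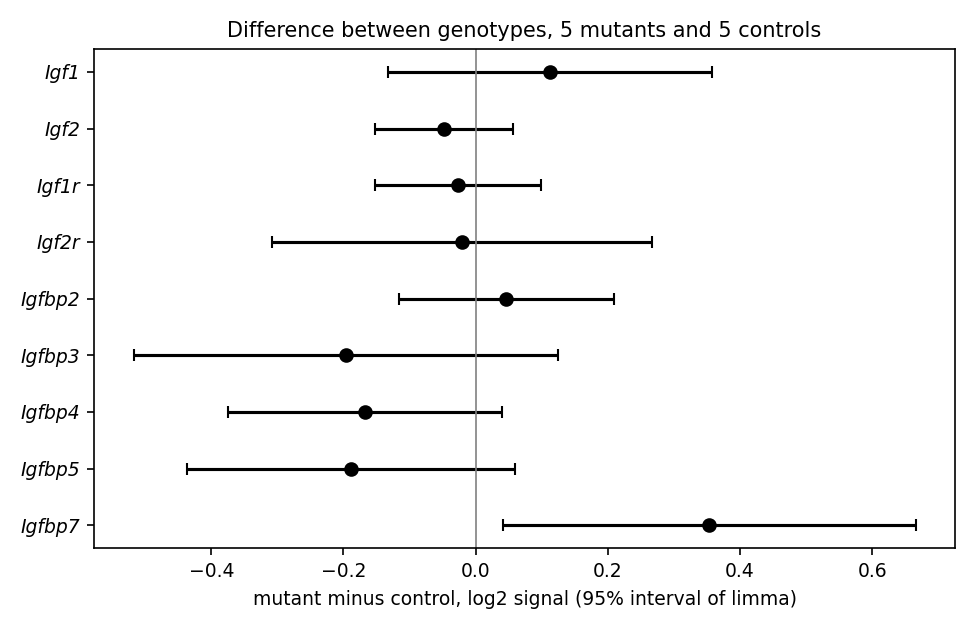
Log2 difference, mutant minus control, of the 9 genes (points) with 95% intervals from the unpaired limma fit (bars), 5 arrays per group. The interval of Igfbp7 (0.04 to 0.67) lies above 0 before any adjustment, and the other 8 intervals include 0.

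Some of the genes varied together over the embryos. Igfbp3 and Igfbp4 had nearly the same profile over the 10 arrays (Pearson r = 0.965, Spearman rho = 0.939, permutation p = 2e-05, adjusted p = 0.000720 over the 36 pairs of the 9 genes). Igf2 and Igfbp5 followed each other as well (r = 0.913, rho = 0.939, permutation p = 5e-05, adjusted p = 0.000900). The other 4 pairs among Igf2, Igfbp3, Igfbp4 and Igfbp5 had r between 0.816 and 0.867 and adjusted permutation p-values between 0.0117 and 0.0218. These 6 of 36 pairs were the ones that passed 0.05. By rank correlation the adjusted permutation p of Igfbp5 with Igfbp3 and with Igfbp4 was 0.0913, so those relations did not pass.

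The relation between Igfbp3 and Igfbp4 was the most stable of the 6. Without mutants 3 and 5, the arrays farthest from the median, r was 0.936 for Igfbp3 with Igfbp4 and 0.876 for Igf2 with Igfbp5. It was 0.681 for Igf2 with Igfbp3, 0.702 for Igf2 with Igfbp4, 0.506 for Igfbp4 with Igfbp5 and 0.477 for Igfbp3 with Igfbp5, so the last of these rest largely on those embryos. With each group's mean taken out, r was 0.966 for Igfbp3 with Igfbp4 and 0.906 for Igf2 with Igfbp5. In the 6 arrays numbered 1 to 3 these values were 0.981 and 0.956, and the 4 arrays numbered 4 and 5 are too few for a value. After a further quantile normalization, r was 0.966 for Igfbp3 with Igfbp4 and 0.823 for Igf2 with Igfbp5. In that setting r fell to 0.688 for Igf2 with Igfbp3 and to 0.724 for Igf2 with Igfbp4. It was 0.851 for Igfbp4 with Igfbp5 and 0.798 for Igfbp3 with Igfbp5. The relations of Igf2 thus depended on the scaling.

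At each point of these relations both genes were read from the same dissected tissue and the same array, and many genes had profiles as alike. Among 12744 other genes with a mean log2 signal of at least 6, Igfbp3 ranked 2 in likeness to Igfbp4, and Igfbp4 ranked 3 in likeness to Igfbp3. Igfbp5 ranked 16 for Igf2, and Igf2 ranked 52 for Igfbp5. Genes correlated at 0.9 or more numbered 88 for Igfbp4, 71 for Igfbp5, 43 for Igfbp3 and 27 for Igf2, but 3 for Igfbp7. Igfbp7 had r between -0.26 and 0.23 with the other 8 genes over all arrays, which depended on which arrays were used. In the 8 arrays left without both numbered 5, r was positive with all 8, from 0.13 with Igfbp5 to 0.40 with Igfbp3 and 0.52 with Igfbp2. Igf1 and Igf1r had an r of -0.30, the lowest of the 36 pairs (rho = -0.43, adjusted permutation p = 0.549 for r).

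**Figure D3:**
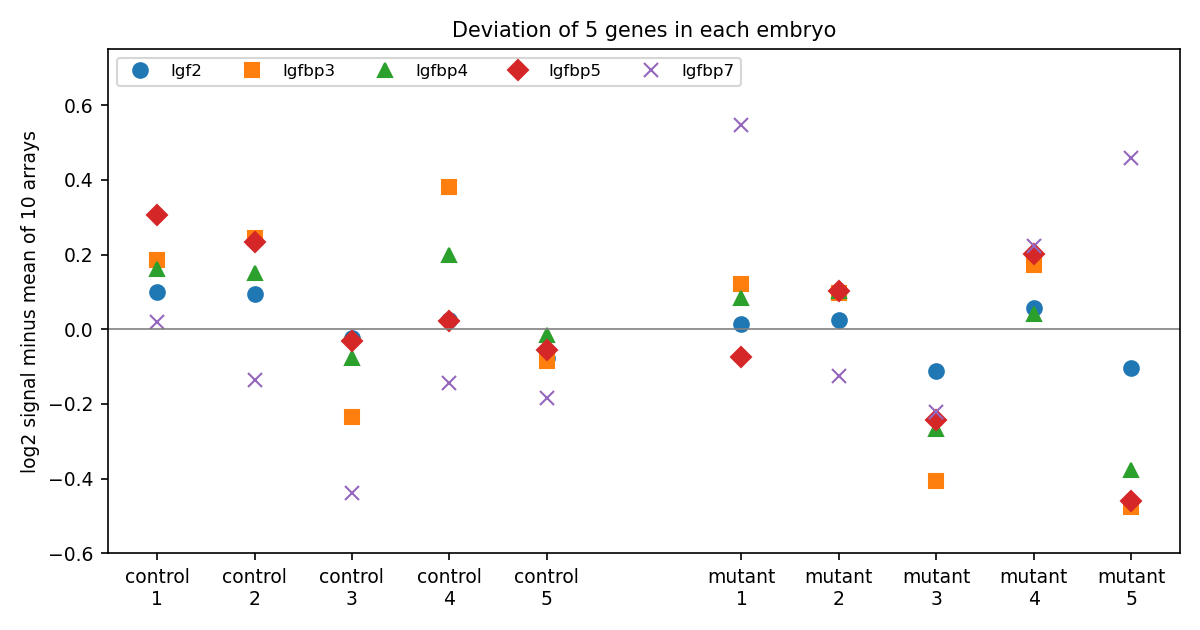
Log2 signal minus the gene's mean over the 10 arrays (vertical axis) in each control and mutant embryo for Igf2, Igfbp3, Igfbp4, Igfbp5 and Igfbp7. The first 4 genes are lowest in mutants 3 and 5 and Igfbp7 is highest in mutants 1 and 5.

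**Figure D4:**
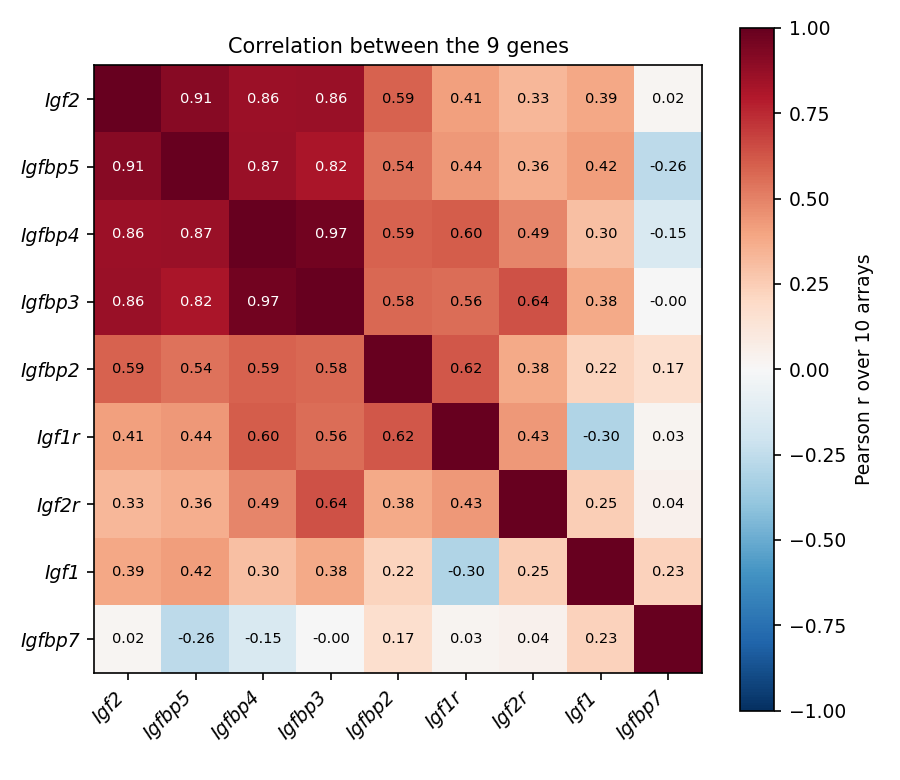
Pearson correlation over the 10 arrays for each of the 36 pairs of genes, from -1 (blue) to 1 (red). Igf2, Igfbp5, Igfbp4 and Igfbp3 form a block with r of 0.816 to 0.965, and Igfbp7 lies between -0.26 and 0.23 with the others over all 10 arrays.

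The genes most like each of the 9 over the 10 arrays are given as a description. For Igfbp3 they were Synpo2l, Snx1 and Igfbp4, and for Igfbp4 they were Trpm4, Igfbp3 and Nme4. Igfbp5 was most like Smarcd3 (r = 0.987) and then P3h1 and P3h4, a collagen prolyl hydroxylase and its relative. Igf2 was most like Xylt1, which starts glycosaminoglycan chains, Ctsa and Shisa5. Igf1 was most like Cobl, Fto and Pir, Igf1r most like Cep68, Slx4 and Tm9sf4, and Igfbp2 most like Med15, Sfn and Unc5b. Igf2r was most like the basement membrane genes Hspg2 (r = 0.966) and Lamc1 (r = 0.956) and the ubiquitin ligase gene Nedd4 (r = 0.964). Igfbp7 was most like Mark3 (r = 0.938), Trim44 and Fam204a.

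Marker lists of the cell types in the dissection were set beside the 9 genes, with 117 relations computed over all lists. Igfbp5 followed the 22 cartilage genes (r = 0.891, rho = 0.891, permutation p = 0.000380, adjusted p = 0.0445), the 1 relation that passed. It was higher where those genes were higher in both genotypes, with r = 0.868 once group means were taken out and r = 0.782 without the 2 arrays farthest from the median. The cartilage genes themselves were lower in the mutants for 21 of 22 members, with a mean deviation of -0.20 to 0.37 in the controls and -0.43 to 0.20 in the mutants. Igfbp5 ran opposite to the 19 neuronal genes (r = -0.873, rho = -0.879, adjusted permutation p = 0.0562), which did not pass. All 19 neuronal genes had a higher mean in the mutants, and their mean deviation was -0.72 to 0.17 in the controls and -0.23 to 0.75 in the mutants.

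Igf2 had r = 0.846 and rho = 0.842 with the cartilage genes (adjusted permutation p = 0.0725). Igfbp3 had r = 0.842 and rho = 0.903 with the 18 skeletal muscle genes, with the same adjusted p. Igfbp2 had r = 0.762 and rho = 0.806 with the 17 periotic and head mesenchyme genes, again at an adjusted permutation p of 0.0725. None of these passed. The part of a changing share of cartilage, muscle or nerve in the values of the 9 genes was not tested.

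**Figure D5:**
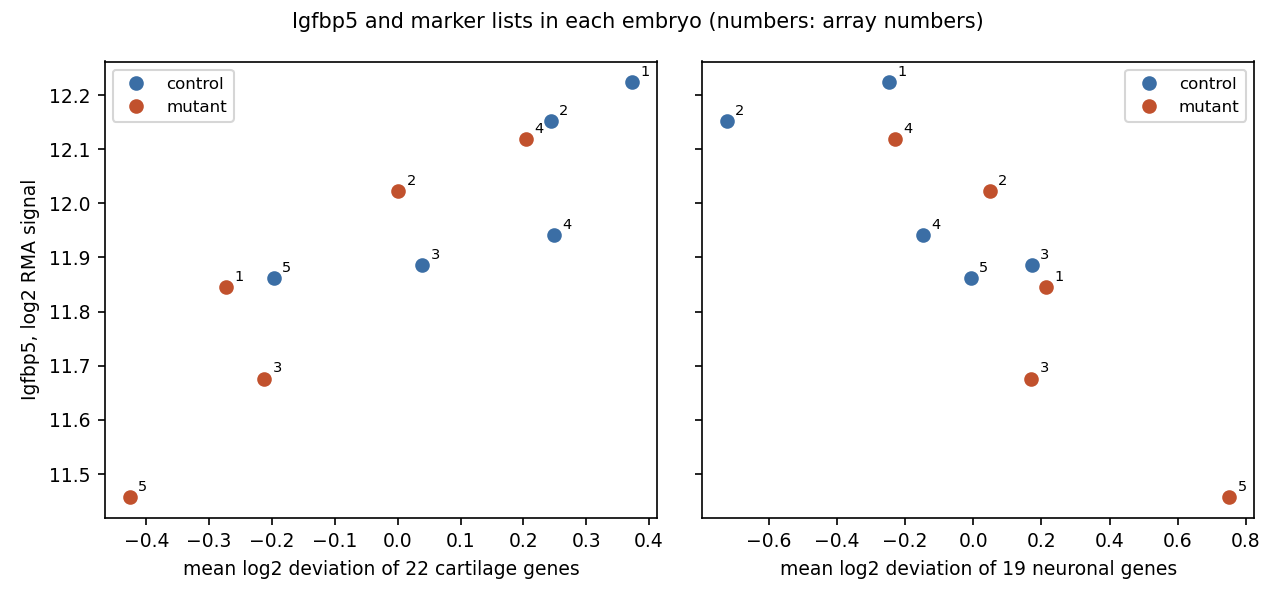
Log2 signal of Igfbp5 (vertical axis) against the mean log2 deviation of the 22 cartilage genes and of the 19 neuronal genes (horizontal axes) in 5 controls and 5 mutants, with array numbers. Igfbp5 is highest in control 1, which has the highest cartilage mean, and lowest in mutant 5, which has the lowest.

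Several IGF-binding proteins are known to respond to low oxygen. Among genes of hypoxia and glycolysis, 17 of 19 had a higher mean in the mutants (median log2 difference 0.28, 0 past the adjusted threshold). At an unadjusted limma p under 0.05, 12 of 19 were higher, beside 4.70% of all genes, and 0 lower, beside 3.11%. The groups did not overlap for 3 of 19, beside 1.83% of all genes. The mean deviation of that list ran from -0.22 to 0.02 in the controls and from -0.01 to 0.23 in the mutants. Of the 9 genes Igfbp2 had the highest r with that list (r = 0.648, rho = 0.576, permutation p = 0.0443, adjusted p = 0.185), and 0.804 with group means taken out. Igfbp3, Igfbp4 and Igfbp5 had r of -0.02, -0.03 and 0.00453 over all arrays, but 0.452, 0.600 and 0.608 with group means taken out. Igfbp7 had r = 0.49 (rho = 0.49, adjusted permutation p = 0.326) and 0.05 with group means taken out. None of these relations passed, and the part of the list in the values of the 9 genes was not tested. Igfbp1, a classic hypoxia-inducible binding protein, had a low signal of 5.17 to 5.57 in the controls and 5.09 to 5.36 in the mutants. Its log2 difference was -0.13 (interval -0.32 to 0.05).

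Of the other genes of the pathway, 42 of 48 were measured, 18 with a higher and 24 with a lower mean in the mutants and a median log2 difference of -0.01. With limma 0 of 42 passed, and 3 of 42 had an unadjusted p under 0.05, beside 7.82% of all genes. With the replicate number as a block, 5 of 42 were higher at that level (6.02% of all genes) and 2 of 42 lower (3.72%), and 0 of 42 passed. Pdpk1, the kinase that activates AKT below the receptors, read 8.78 to 8.96 in the controls and 8.999 to 9.203 in the mutants, so all mutants lay above all controls. Pdpk1 was the 1 of 42 genes without overlap between the groups, beside 1.83% of all genes, and had the smallest p of the list. Its log2 difference was 0.18 (standard error 0.06, limma adjusted p = 0.571). Insr, the insulin receptor, which also binds IGF2, read 9.11 to 9.39 in the controls and 9.29 to 9.73 in the mutants, with a log2 difference of 0.22 (interval 0.04 to 0.40) and an adjusted p of 0.578. A further probe set of Insr had 0.08 (interval -0.07 to 0.22). Igfbp6, which prefers IGF2, had a low signal of 5.40 to 5.59 in the controls and 5.199 to 5.46 in the mutants, with a log2 difference of -0.17 and an adjusted p of 0.599.

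Neither protease that frees IGFs from their binding proteins passed. Pappa2, which cleaves IGFBP3 and IGFBP5, had a log2 difference of 0.33 (interval -0.01 to 0.67, adjusted p = 0.617), with 8.36, 8.09, 8.20, 7.94 and 7.57 in mutants 1 to 5 and 7.31 to 8.01 in the controls. Its other probe sets had 0.26 and 0.10. Among arrays 1 to 3 Pappa2 differed by 0.65 (interval 0.34 to 0.96, limma adjusted p = 0.586), and among arrays 4 and 5 by -0.15 (interval -0.56 to 0.27), so the sign was not stable. Pappa, which cleaves IGFBP4, had 0.17 (interval -0.09 to 0.44), with 0.0667 without mutant 4 and 0.26 (interval 0.04 to 0.49) without mutant 5. Below the receptor, the adaptor Irs1 had a log2 difference of -0.06 (interval -0.24 to 0.12) and Irs2 one of 0.01 (interval -0.17 to 0.20), the latter with a sign that depended on the scaling.

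Igf2 belongs to a group of imprinted genes that govern embryonic growth, and 18 of 20 listed genes of that kind were measured. Of these 9 had a higher and 9 a lower mean in the mutants, the median log2 difference was 0.000640, 0 of 18 passed (0.0100% of all genes did), and 1 of 18 had an unadjusted p under 0.05, beside 7.82% of all genes, a share no higher than the background. The block gave 1 of 18 higher (6.02% of all genes) and 1 of 18 lower (3.72%) at that level. The gene in the unpaired fit was Ppp1r9a, a neuronal scaffold protein, with a log2 difference of 0.22 (interval 0.02 to 0.42, limma adjusted p = 0.589). Dlk1, a growth regulator of the Notch ligand family, had -0.20 (interval -0.45 to 0.04), Mest -0.10 (interval -0.24 to 0.05) and Sgce 0.14 (interval -0.07 to 0.35), none of which passed. Grb10, an imprinted adaptor that damps insulin and IGF receptor signalling, read 12.16 to 12.47 in the controls and 12.14 to 12.46 in the mutants. Its log2 difference was -0.00634 (interval -0.16 to 0.15), and its sign changed with the scaling. H19, the neighbour of Igf2, was not analysed here.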

How the data were processed

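The deposited values are log2 signals. Per the submitters' processing notes, the authors used RMA and Affymetrix Expression Console 1.1, and the range of the values shows the log2 scale. RMA corrects background, sets the arrays to one distribution and summarises the probes of a probe set. The table held 35557 probe sets, of which 21789 had 1 gene symbol in the platform annotation, 1621 had several and 12147 were not listed. Symbols were updated by gene id for 21698 of them through the RefSeq table of GRCm38.p6. Where a gene had several probe sets the one of highest mean stood for it, which gave 19938 genes.

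Differences are mutant minus control, from limma 3.58.1 under R 4.3.3 (lmFit, then eBayes with trend; two-sided). P-values were Benjamini-Hochberg adjusted over the 21789 probe sets, with a threshold of 0.05 and 95% intervals. Correlations between genes used permutation tests with 100000 resamples and adjustment over their family. The fit was tested on simulated data. Precision is limited by the number of arrays, as arrays have no read depth. Where replicates are not separate in more than name, p-values measure only the spread between these samples. The members and lists were chosen with earlier results of these data known. Named beside the 9 genes are the 4 of smallest p in the pathway list and in the imprinted list where none passed, a fixed set (Grb10, Igfbp1, Igfbp6, Insr, Irs1, Irs2, Pappa, Tbx1; H19 had no probe set with 1 symbol in the annotation used), and the 3 genes most correlated with each of the 9 among those of mean 6 or more, with none left out as predicted.

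Once group means were removed, mutant and control arrays of the same number correlated at 0.122 to 0.247, and others at -0.392 to 0.382. Only 2 of 5 mutants correlated best with the control of their own number, so these values do not establish that the numbers pair the arrays. The main values are unpaired, and the block and the same-number pairs are given beside them. Alternatives were another variance model, array weights, other scalings, a signal filter, all probe sets, the replicate number as a block, the number split, sex and leaving out each array.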

Additional observations from a re-analysis of the deposited data

Results flagged for a closer look

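Of 46 groups of 5 arrays examined for the 9 genes and the other named genes, 1 held an array far from the rest by Dixon's ratio, where chance marks about 2. It was the imprinted gene Ppp1r9a in mutant 5, with a log2 signal of 8.046, where the other mutants read 7.67 to 7.73. Mutant 5 also had the highest means of the neuronal and hindbrain marker lists. None of the 9 genes of the IGF system had such an array.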

How the results depend on the processing

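Over 23 alternatives the count of called genes was 0 among the 9 genes, the pathway genes and the imprinted genes. In all genes it was 2, except 0 with a mean signal of 6 or more, 1 in only arrays 1 to 3 and 0 in only arrays 4 and 5, and it was 2 whichever single array was left out. With the replicate number as a block (a paired fit) it was 2, and the block changed no call at the adjusted threshold; the lowest adjusted p of any of the 9 genes under any alternative was 0.377, for Igfbp7 in that fit. Igf1, Igfbp3, Igfbp4, Igfbp5 and Igfbp7 kept their direction in all 23.

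In only arrays 1 to 3 the sign turned for Igf1r (0.00520), Igf2r (0.0879) and Grb10 (0.0575), and in only arrays 4 and 5 for Igf2 (0.00225), Igfbp2 (-0.0182), Pappa2 (-0.15) and Irs2 (-0.18). Without both arrays numbered 5, an alternative chosen after seeing the data, it turned for Igf1r (0.0102), Igf2r (0.0569) and Grb10 (0.0537). Grb10 also turned with array weights (0.00298), quantile normalization (0.00566) and median centring (0.0100), and Irs2 with quantile normalization (-0.000155). With single arrays left out the range was -0.13 to 0.0581 for Igf2r, -0.0497 to 0.0408 for Grb10 and -0.0268 to 0.0675 for Irs2. For named genes beside the 9, single arrays moved the difference of Irs1 from -0.11 to -0.00957, Mest from -0.13 to -0.0516, Dlk1 from -0.27 to -0.13, Sgce from 0.0936 to 0.23 and Igfbp1 from -0.19 to -0.0874. The signal filter left out Igfbp1 and Igfbp6, and other probe sets could not be tried for the 9 genes, which have 1 each. The cause of these turns was not tested. The correlations between the genes were also recomputed under settings chosen after seeing the data.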
